A study of Mus musculus with 8 samples.

Results

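The 7 genes described here encode the mitochondrial gatekeepers of the BCL2 family. They were taken by gene symbol from the 22065 named genes of the count table. The guardians were Bcl2 (BCL2), Bcl2l1 (BCL-XL), Bcl2l2 (BCL-W) and Mcl1 (MCL1), and the pore-forming effectors were Bax (BAX), Bak1 (BAK) and Bok (BOK). All 7 passed the expression filter and were among the 16444 genes tested. RNA-seq was performed on 8 libraries, each from 100 HSCs sorted from bone marrow as CD150+ CD48- EPCR+ Lineage- cells, 1 week after Poly:IC. Mice were C57BL/6, 8 to 10 weeks old and carried Mitol Flox/Flox in both groups. The 4 libraries labelled Mitol knockout came from mice with MX1-cre, and the 4 control libraries from littermates without it that also received Poly:IC. MX1-cre is driven by an interferon-responsive promoter, so deletion was not limited to HSCs. Neither the labels nor the methods say whether a library is 1 mouse or a pool, so p-values measure the spread between these libraries.

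The BCL2 family decides whether the outer mitochondrial membrane is opened during intrinsic apoptosis. BAX and BAK assemble into pores that release cytochrome c, the guardians bind and restrain them, and BH3-only proteins switch the balance by occupying the guardians or engaging the effectors directly. BOK is a further effector that is known for being controlled by degradation at the endoplasmic reticulum and is little restrained by the guardians. MCL1 is a short-lived protein required for HSC survival. MITOL, a ubiquitin ligase of the outer mitochondrial membrane encoded by Marchf5, has been linked to the turnover of MCL1, and the study asked what its loss does to HSC survival. The comparison here is of the family's messages, with no protein level.

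The start regions of Bax and Bok are shown because these were the members whose values in the 2 groups did not overlap. Both sequences are from RefSeq, with coordinates found by exact match to GRCm39 (table build GRCm38.p6). Only bases ahead of the first annotated exon are printed, 5′ to 3′ on the strand of the gene. Capitals mark an E-box (CACGTG) or a GC box (GGGCGG, or its reverse complement).

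Bax: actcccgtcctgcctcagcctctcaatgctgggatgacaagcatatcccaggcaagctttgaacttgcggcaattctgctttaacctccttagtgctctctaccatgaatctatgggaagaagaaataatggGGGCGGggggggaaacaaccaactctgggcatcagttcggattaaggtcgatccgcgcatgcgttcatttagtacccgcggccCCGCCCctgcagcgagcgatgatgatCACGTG

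Bok: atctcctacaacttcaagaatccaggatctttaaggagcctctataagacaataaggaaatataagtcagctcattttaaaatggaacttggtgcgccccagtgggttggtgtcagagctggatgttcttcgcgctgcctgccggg

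The Bax sequence covers chr7:45116326-45116572 on the minus strand and the Bok sequence chr1:93613047-93613192 on the plus strand. Of the 9 windows of 250 bases found for the 7 members, 3 of them for Bcl2l1, only that of Bax held an E-box, which 6.02% of 32851 RefSeq windows hold on either strand. A GC box was present in the windows of Bcl2, Bcl2l2, Mcl1, Bax and Bok, and in 32.7% of all windows. The GC box of Bok lies in bases of the first exon that are not printed. The ER stress element (ERSE), the ATF4 composite element TGATGNAA and the complete p53 response element, searched on both strands, were in none of the 9 windows, and were in 0.113%, 3.45% and 0.0639% of all windows. A single p53 decamer was in the Bax window and in 7.13% of all windows. These are letter matches and do not show that a factor was bound. All 250 bases of the Bak1 window, and of windows 1 and 2 of Bcl2l1, lie in annotated exons. For Bak1 the search therefore covered no bases ahead of its exons.

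On GRCm39 with GENCODE vM39, Bok lies on chromosome 1 from 93613193 to 93623498, Bax on chromosome 7 from 45111015 to 45116325 and Bak1 on chromosome 17 from 27238784 to 27247983. Bcl2 lies on chromosome 1 from 106465908 to 106642060, Bcl2l1 on chromosome 2 from 152622582 to 152673655, Bcl2l2 on chromosome 14 from 55120778 to 55126551 and Mcl1 on chromosome 3 from 95566026 to 95570487. Bak1 shares 437 exonic bases with Ggnbp1 on the opposite strand. The library protocol did not mark strand, so reads in that stretch cannot be assigned to 1 of the 2 genes. Ggnbp1 had 48.5 to 87.8 normalized counts in the knockout-labelled libraries and 95.2 to 105.5 in control libraries, the opposite order to Bak1. Bax shares 192 exonic bases with Gm45808 on the same strand and 60 with Gm73431 on the opposite strand. Bcl2l2 shares 594 with Gm20521 on the same strand, Bcl2 558 with D630008O14Rik and Bcl2l1 476 with Gm74855, both on the opposite strand, and these reads cannot be separated either.

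Counts on named genes summed to between 7214935 and 12398138 per library. Normalized counts are counts divided by a size factor for each library. The targeted gene, Marchf5, had 276, 232, 308 and 281 normalized counts in knockout-labelled replicates 1 to 4 and 299, 312, 333 and 262 in control replicates 1 to 4. Its log2 fold change was -0.15 (SE 0.13, edgeR's quasi-likelihood test, Benjamini-Hochberg adjusted p = 0.498), so the whole-gene count does not check the labels. It sums the deleted and the remaining exons, which cannot be separated. Groups are therefore named by their labels, and directions below are those of the libraries labelled Mitol knockout against control.

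The sorted cells carried 7 of 7 HSC markers in every library, and these markers did not move together. Slamf1 and Procr encode antigens of the sorting gate, and the study's definition of long-term HSCs also required c-Kit, encoded by Kit. The sort selected for these antigens, so the presence of their messages is no separate support for cell identity. Kit and Hlf were called lower, Procr, Mecom and Fgd5 had a lower mean without passing, and Slamf1 (log2 fold change 0.56, adjusted p = 0.0501) and Ly6a (0.76, adjusted p = 0.0605) had a higher mean without passing. The summed level, to which Kit and Hlf contribute most, was 18739 to 22155 normalized counts in knockout-labelled and 26737 to 32006 in control libraries. Cd48, which the gate excludes, was at 22.2 to 63.4 and 4.49 to 21.7 normalized counts (adjusted p = 0.045). All 6 dividing-cell markers (Mki67, Top2a, Cdk1, Ccnb1, Ccna2, Aurkb) were higher, with sums of 10731, 10282, 8077 and 4839 in knockout-labelled replicates 1 to 4 and of 2496 to 5195 in control libraries. Erythroid markers, 3 of 7 found by symbol, summed to 263 and 817 in knockout-labelled replicates 3 and 4, 97.1 and 135 in replicates 1 and 2, and 87.3 to 141 in control libraries. Neutrophil marker sums were 16.9 to 36.6 in knockout-labelled and 50.1 to 88.9 in control libraries. Of the genes in them, S100a8 was at 0 to 1.57 and 0 to 51.2, and S100a9 at 0 and 2.64 to 21.3. Both were filtered out, and the only neutrophil gene tested, Ngp, had a log2 fold change of 0.0013. Megakaryocyte sums, mostly Itga2b, were 375 to 1643 and 716 to 806, and B-cell sums, mostly Cd79b, 136 to 150.3 and 145 to 204. Pf4, a platelet chemokine gene of the megakaryocyte list, was called lower, at 13.3 against 42.9 normalized counts (adjusted p = 0.0202). Of the other megakaryocyte genes tested, Itga2b had a log2 fold change of 0.49 and Gp9 of -0.45, and neither was called. T-cell sums were 20.1 to 36.0 and 35.0 to 54.3, and the 1 mast-cell gene in the table was at 7.32 to 13.8 and 11.3 to 21.1. Bulk RNA cannot separate fewer cells of a type from less RNA per cell.

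By level per kilobase of exons, Mcl1 was by far the most abundant member in both groups. It had 1184 ± 122 normalized counts per kilobase (SD, n = 4) in knockout-labelled and 1236 ± 250 in control libraries, which was 72.3% ± 3.31 and 77.1% ± 4.60 of the sum over the 7 genes. It ranked at percentile 99.6 of 15443 tested genes with a known exon length. Next came Bak1 at 121 ± 10.8 and 84.2 ± 24.8 and Bax at 110 ± 4.15 and 81.0 ± 12.5 normalized counts per kilobase in the knockout-labelled and control libraries. Bak1 and Bax overlapped in both groups. Bcl2, at 87.8 ± 11.2 and 73.0 ± 3.12, was separate from Bax in knockout-labelled libraries and overlapped it in control libraries. Bcl2l1 (58.7 ± 14.9 and 58.7 ± 11.9) and Bcl2l2 (45.8 ± 1.91 and 52.6 ± 13.98) overlapped each other in both groups. Bok was lowest, at 26.0 ± 13.4 and 6.75 ± 2.50, at percentile 23.7, and its range was separate from that of Bcl2l2, its neighbour in the order, in both groups. In knockout-labelled libraries it met that of Bcl2l1, since Bok reached 38.4 in replicate 1 and Bcl2l1 was at 37.5 in replicate 4. The order of the 7 means was the same in both groups.

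**Figure D1:**
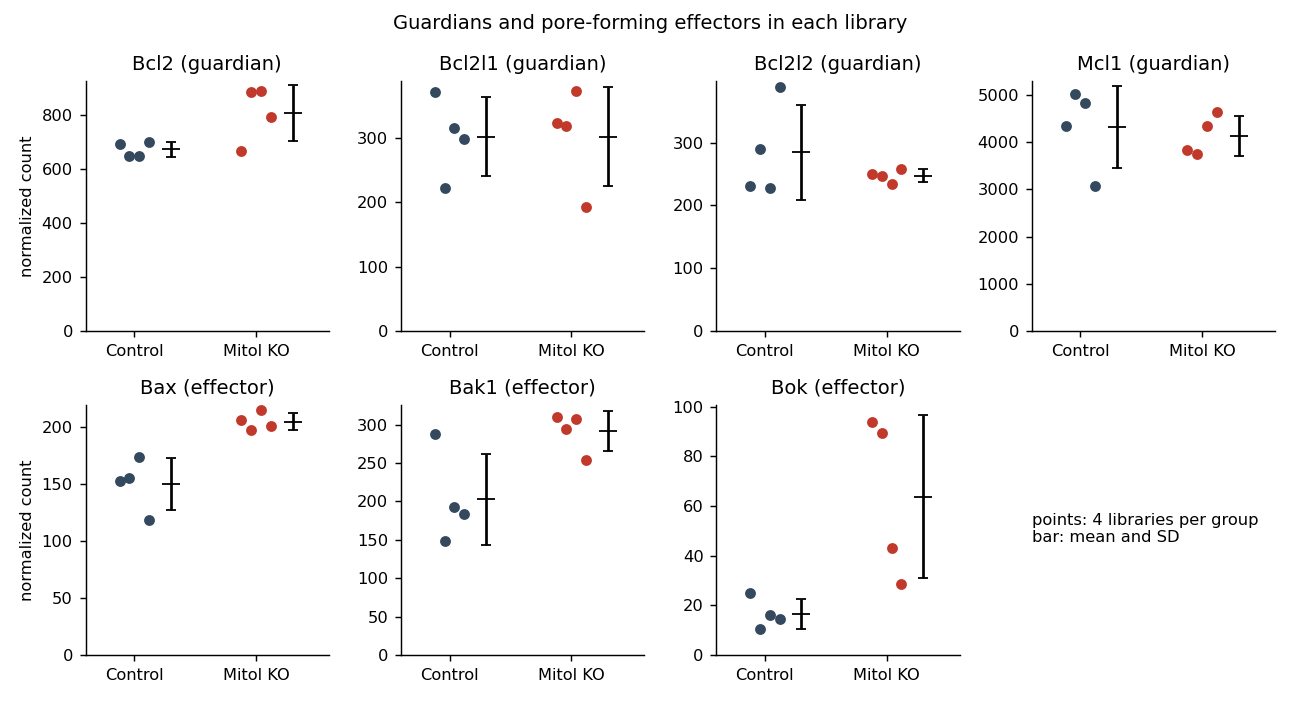
Normalized counts (y axis, from 0) of the 7 members in each of the 4 knockout-labelled and 4 control libraries, with mean and SD per group. Bax and Bok lie above all control libraries in all 4 knockout-labelled libraries, and the other 5 members overlap.

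All 3 effectors had a higher mean in the knockout-labelled libraries, and 1 of 3, Bok, passed the adjusted threshold, where 4.68% of all 16444 genes were called higher. Across all 7 members 1 was called, against 8.43% of genes in either direction, and 4 had an unadjusted p under 0.05 (Bok, Bax, Bak1 and Bcl2), against 26.4%. The groups did not overlap, with the knockout-labelled group above, for 2 of 7 members, against 8.17% of genes.

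Bok, the noncanonical pore former, had 93.9, 89.4, 43.0 and 28.6 normalized counts in knockout-labelled replicates 1 to 4 and 25.1, 10.6, 16.01 and 14.4 in control replicates 1 to 4. Replicates 1 and 2 of the knockout-labelled group stood highest, replicate 4 lay just above the highest control, and the groups did not overlap. These rest on 120, 86, 47 and 27 reads and on 19, 10, 17 and 16 reads. Bok rose 3.84-fold (95% interval 2.03 to 7.28, log2 fold change 1.94, SE 0.42, edgeR's quasi-likelihood test, Benjamini-Hochberg adjustment, adjusted p = 0.0207, higher than every control in 4 of 4 libraries). The call was lost when any of 4 libraries was left out in turn (knockout-labelled replicate 1 or 2, control replicate 2 or 4), with adjusted p between 0.0595 and 0.0682 and the log2 fold change between 1.69 and 1.89. Within the knockout-labelled group, the sum of dividing-cell markers ranked the 4 libraries as Bok did, and the erythroid sum ranked them in reverse. Cycs and Vdac1 had the same order there, so it is not particular to Bok. The control libraries did not follow it. Control replicate 1 had the highest Bok count of that group and the lowest dividing-cell sum (2496), and control replicate 3 the highest sum (5195). The part of these marker sums in the result was not tested.

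Bax, which moves from the cytosol to mitochondria when activated, had 207, 197, 215 and 201 normalized counts in knockout-labelled replicates and 153, 155, 174 and 119 in control replicates. The knockout-labelled values were tightly grouped, with a CV of 3.76% against 15.4%, and lay above every control value. The log2 fold change was 0.43 (SE 0.15, 95% interval 0.10 to 0.76, adjusted p = 0.0972, 4 of 4 libraries), so Bax did not pass the threshold. In DESeq2's Wald test it did, at a log2 fold change of 0.45 and an adjusted p of 0.0488, and the adjusted p over the 7 alternatives that kept all libraries was 0.0488 to 0.127.

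Bak1, which is held at the outer membrane by VDAC2 and by guardians, had 309.9, 294, 308 and 254 normalized counts in knockout-labelled replicates and 287, 148, 192 and 183 in control replicates. Control replicate 1 lay inside the knockout-labelled range, so the groups overlapped, and the other 3 controls lay below it. The log2 fold change was 0.51 (SE 0.19, 95% interval 0.11 to 0.91, adjusted p = 0.105, 3 of 4 libraries). Without control replicate 1 it was 0.73 and the adjusted p was 0.0241.

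Among the guardians, 1 of 4 had a higher mean and 3 had a lower mean. None passed the threshold in edgeR, where 8.43% of all genes were called in either direction and 3.75% lower. In 0 of 4 did the groups stand apart, against 15.4% of all genes in either direction and 7.18% with the knockout-labelled group below. At an unadjusted p under 0.05, 1 of 4 did, which was Bcl2. The median log2 fold change was -0.05, beside -0.02 over all genes tested. Bcl2, the founding guardian, had 668, 885, 888 and 792 normalized counts in knockout-labelled replicates and 694, 649, 647 and 701 in control replicates. Knockout-labelled replicate 1 lay within the controls and the other 3 lay above them. The log2 fold change was 0.25 (SE 0.11, 95% interval 0.01 to 0.48, adjusted p = 0.172).

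Mcl1 had 3824, 3739.8, 4340.0 and 4631 normalized counts in knockout-labelled replicates and 4343, 5016, 4826 and 3080.2 in control replicates. The highest and the lowest of the 8 values were both controls, and the groups overlapped. The log2 fold change was -0.08 (SE 0.14, 95% interval -0.38 to 0.22, adjusted p = 0.759), which leaves room for changes of either sign up to those bounds. Bcl2l1, which encodes BCL-XL, had 323, 318, 373 and 193 normalized counts against 371, 222, 316 and 298. Both groups ranged widely around means of 302. Its log2 fold change was -0.01 (SE 0.20, 95% interval -0.46 to 0.43, adjusted p = 0.975). Bcl2l2, which encodes BCL-W, had 250.5, 247, 233 and 258 against 231, 290.5, 227 and 389. Control replicate 4 was the highest value and the knockout-labelled values lay inside the control range. Its log2 fold change was -0.22 (SE 0.17, 95% interval -0.60 to 0.15, adjusted p = 0.440), and -0.03 without control replicate 4.

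**Figure D2:**
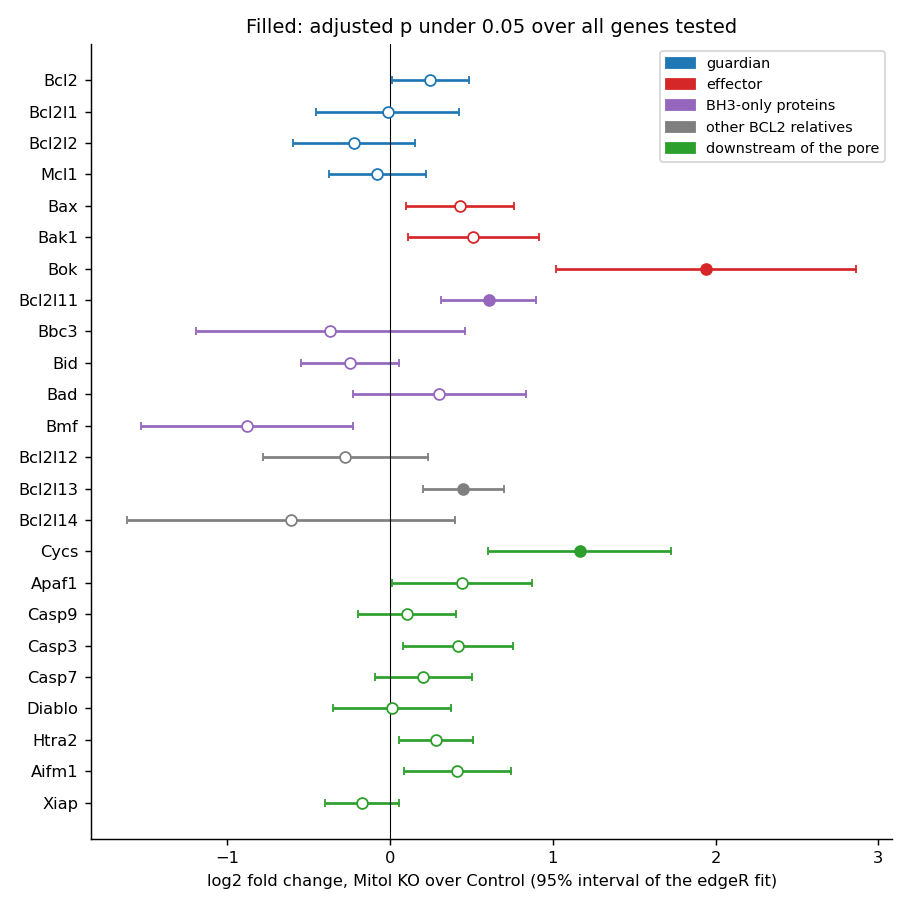
Log2 fold change, Mitol knockout over control, with the 95% interval of the edgeR fit (x axis) for the 7 members, BH3-only genes, other BCL2 relatives and genes downstream of the pore. Filled points have an adjusted p under 0.05, which were Bok, Bcl2l11, Bcl2l13 and Cycs.

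Each guardian was also set against each effector within a library, as the log2 ratio of counts after adding 0.5 to each, so that library size cancels. All 12 ratios had a lower mean in the knockout-labelled libraries, by 0.20 (Bcl2 to Bax) to 1.98 (Bcl2l2 to Bok) on the log2 scale. Single libraries carried much of some of these. The difference for Bcl2 to Bax was -0.11 without knockout-labelled replicate 1 and -0.07 without control replicate 4, and that for Bcl2l2 to Bax was -0.63 with all libraries and -0.35 without control replicate 4. Ratios that share an effector are not independent, and the mean ratio to Bax, Bak1 and Bok was lower for 88.6%, 91.8% and 99.5% of all genes tested. The groups did not overlap for 6 of the 12. For ratios to Bax it was 2 of 4, against 34% of all genes, for Bak1 it was 1 of 4, against 15.6%, and for Bok it was 3 of 4, against 63.8%. Shares this close to those of all genes are no result about the guardians.

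Mcl1 to Bax was 4.21, 4.24, 4.33 and 4.52 in knockout-labelled replicates 1 to 4 and 4.82, 5.01, 4.79 and 4.69 in control replicates 1 to 4. The groups were separate, with means of 4.33 ± 0.14 and 4.83 ± 0.13 (SD, n = 4), a difference of -0.50. Mcl1 to Bok was 5.34, 5.38, 6.64 and 7.31 against 7.40, 8.81, 8.19 and 7.70, and here too the lowest control lay just above knockout-labelled replicate 4. Bcl2l1 to Bak1 was 0.06, 0.11, 0.28 and -0.40 against 0.37, 0.59, 0.71 and 0.70. These were separate, although neither gene passed the threshold alone. Bcl2 to Bok was 3.81 ± 0.90 against 5.37 ± 0.47 and overlapped by a narrow margin, since knockout-labelled replicate 4 was at 4.77 and control replicate 1 at 4.75. Bcl2 to Bax (1.97 ± 0.20 against 2.17 ± 0.28) overlapped more widely. Per kilobase of exons, Mcl1 exceeded Bax by a median of 10.4-fold in knockout-labelled and 14.9-fold in control libraries.

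**Figure D3:**
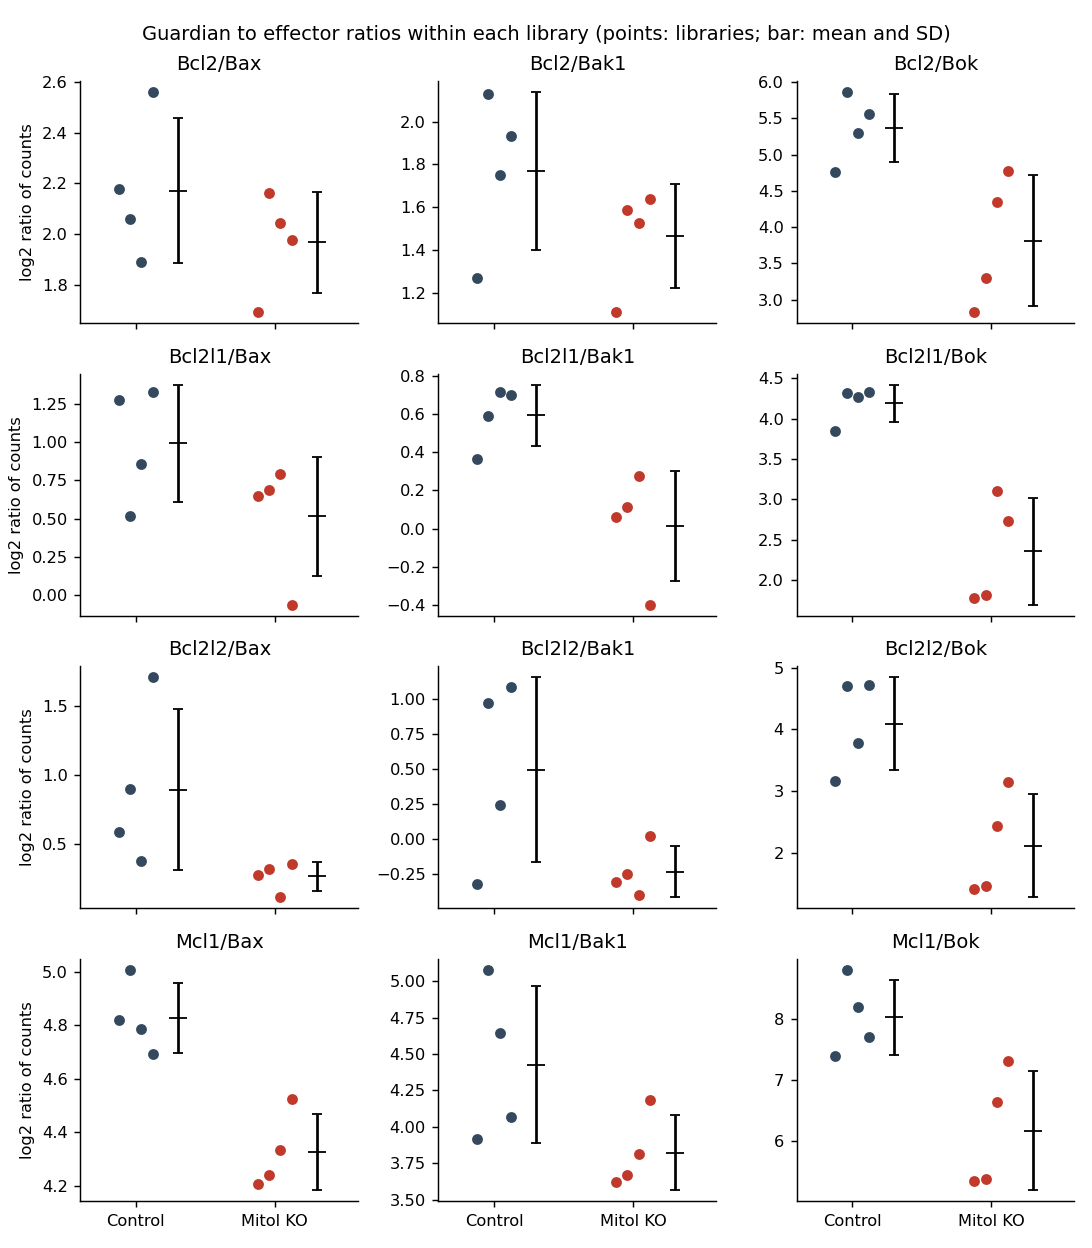
Log2 ratio of each guardian to each effector (y axis, scaled separately in each panel) in the 4 knockout-labelled and 4 control libraries. In all 12 panels the knockout-labelled mean is lower, and in 6 of them the groups do not overlap.

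The summed guardian level per kilobase was 1277, 1275, 1455 and 1498 normalized counts per kilobase in knockout-labelled replicates and 1434, 1604, 1556 and 1089 in control replicates, and the groups overlapped. The summed effector level was 278, 265, 261 and 225 against 212, 149, 180.3 and 146, without overlap. The log2 ratio of the 2 sums, on counts, was 3.29 ± 0.24 in knockout-labelled and 3.92 ± 0.29 in control libraries (SD, n = 4), a difference of -0.63. Knockout-labelled replicate 4, at 3.60, and control replicate 1, at 3.60, met at the boundary, and the groups overlapped. On counts per kilobase the groups were separate by a narrow margin, with the same libraries at 2.73 and 2.75. With Mcl1 left out the difference was -0.51 and the groups were separate, and with Bok left out it was -0.52 and they overlapped. As the difference of mean log2 CPM, which weights the 7 genes equally, it was -0.91 and they were separate. The mean ratio to Bax, Bak1 and Bok was lower for 88.6%, 91.8% and 99.5% of all genes tested. A lower summed ratio is therefore no result about the guardians.

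**Figure D4:**
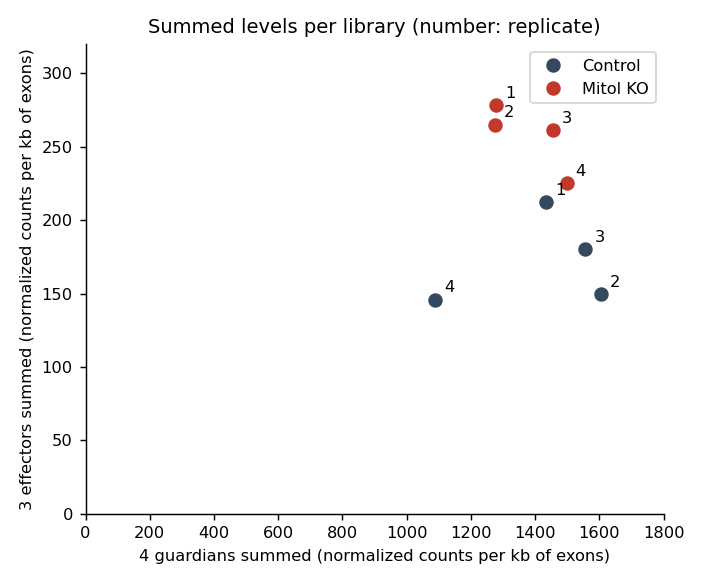
Summed guardian level against summed effector level, both in normalized counts per kilobase of exons, for each library numbered by replicate. The knockout-labelled libraries lie at 225 to 278 on the effector axis and the control libraries at 146 to 212, while on the guardian axis the knockout-labelled libraries (1275 to 1498) lie inside the control range (1089 to 1604).

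The BH3-only proteins, which set the guardians and effectors in motion, had 5 of 8 listed genes tested. Of these 1 was called higher and none lower, against 4.68% and 3.75% of all genes, and 2 of 5 had an unadjusted p under 0.05, against 26.4%. The median log2 fold change was -0.25, beside -0.02 over all genes. Bcl2l11, which encodes BIM, a BH3-only protein that binds all guardians, had 358, 294, 305 and 298 normalized counts in knockout-labelled replicates and 210, 211, 171 and 224 in control replicates. The groups were separate, and it rose with a log2 fold change of 0.61 (SE 0.13, adjusted p = 0.0212). The call was lost without knockout-labelled replicate 1 or control replicate 2 or 3, with adjusted p of 0.0618, 0.0593 and 0.0501. Bbc3, which encodes PUMA, had a log2 fold change of -0.37 (SE 0.38, adjusted p = 0.581), and overlapped. Bmf, the other BH3-only gene with an unadjusted p under 0.05, had a log2 fold change of -0.88 (95% interval -1.53 to -0.23, adjusted p = 0.0863). Bid had -0.25 (adjusted p = 0.283), with every knockout-labelled library below the controls. Pmaip1, which encodes NOXA, was filtered out, at 0, 0, 9.15 and 14.8 normalized counts against 0, 2.13, 1.88 and 0. Of the other BCL2 relatives, 3 of 8 were tested and Bcl2l13, a mitophagy receptor, was called higher (log2 fold change 0.45, SE 0.11, adjusted p = 0.0341).

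Downstream of the pore, 9 of 10 listed genes were tested, 8 had a log2 fold change above 0, as did 7841 of all 16444 genes, and 1 was called, against 8.43% of genes. The median was 0.28. Cycs, the gene of cytochrome c, had 205, 179, 134 and 85.7 normalized counts in knockout-labelled replicates and 67.3, 55.3, 78.2 and 64.7 in control replicates. The groups were separate and the log2 fold change was 1.16 (SE 0.26, adjusted p = 0.0217). It was lost without any of 4 libraries, with adjusted p of 0.0581 to 0.0692. Cycs has processed copies in the genome, and the handling of reads that map to several places is not given in the sources used here, so its level is uncertain. Of 15 partners and regulators, 3 were called higher and 1 lower, against 4.68% and 3.75% of all genes: Vdac1 (log2 fold change 0.45, adjusted p = 0.0345), a channel of the outer membrane, Trp53 (0.31, adjusted p = 0.0423), the gene of p53, Fbxw7 (0.34, adjusted p = 0.0496), a ubiquitin ligase subunit that targets MCL1, and Ern1 (-0.36, adjusted p = 0.0264), which encodes the ER stress sensor IRE1. Vdac1 and Fbxw7 lost the call without any single library other than knockout-labelled replicate 4, with adjusted p of up to 0.104 and 0.140. Trp53 kept it only without that library or control replicate 1, and otherwise reached an adjusted p of up to 0.127. Fbxw7 also lost it with library totals as the scaling (adjusted p = 0.0876), without a filter (0.0565) and with limma-voom (0.0522). With library totals, Trp53 (0.0662), Vdac1 (0.0518) and Bcl2l13 (0.0515) lost it too. Bcl2l13 and Ern1 each lost it in 6 of the 8 fits with 1 library left out, with adjusted p of up to 0.101 and 0.0786.

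Over the 8 libraries, the log2 CPM of Bok followed that of Psmd2 (r = 0.99), Tsn (0.99) and Anp32e (0.99) most closely among 12013 genes, and Bax followed Dynll1 (0.98), Ccnk (0.98) and Elavl1 (0.98). Bak1 followed Rab1b, Ndufa3 and Rcc1l, at r of 0.97, 0.97 and 0.96. For Mcl1 the closest were Elmod2 (0.97), Luc7l (0.97) and Ppp1r15a (0.96). Bcl2 followed Ccdc124 (0.97), Gpkow (0.96) and Reep6 (0.94), Bcl2l1 followed Nln (0.97), Hras (0.96) and Slc52a2 (0.90), and Bcl2l2 followed Il17re (0.97), Gm42819 (0.97) and Anxa11os (0.96). These are descriptions over 8 libraries that share their group differences and depth, and carry no p.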

How the data were processed

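RNA-seq was performed on 8 libraries of 100 sorted HSCs, 4 labelled Mitol knockout and 4 control. Reads were single-end and 75 bp long, and the authors, per the submitters' processing notes, used STAR, SAMtools and Subread with mm39. The deposited values are raw counts per gene, without normalization. The annotation and the handling of multiply mapped reads are not given in the sources used here. Of 23094 rows, 1029 without a symbol (0.335% to 0.467% of a library's counts) were left out.

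Counts were tested with edgeR 4.0.16 (R 4.3.3; quasi-likelihood test, TMM, default expression filter, condition as the sole term), with Benjamini-Hochberg adjustment over 16444 genes and a threshold of 0.05. Normalized counts used size factors of DESeq2 1.42.0. Exon lengths came from GENCODE vM39 (20368 genes matched). Ratios had 0.5 added to each count and were described without a test. The fit was also run on counts simulated under its own model, with means and dispersions taken from these data. That run cannot show whether the model holds for the real counts. Alternatives were other scalings and filters, DESeq2, limma-voom (limma 3.58.1), the replicate block, other forms of the ratios, and each library left out. Genes named were the members, Marchf5, list genes past the threshold, Bcl2l11, Bbc3, Pmaip1 and Trp53, the 3 genes most like each member in log2 CPM (prior count 2, mean normalized count of at least 50), and marker genes. A few genes, such as Ggnbp1, were named for overlapping a member. The members and lists were chosen with earlier results of these data known. Library totals ran from 7214935 to 12398138, and without molecular identifiers a read is not a separate molecule. Some marker genes are not reported here and were left out of the marker sums.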

Additional observations from a re-analysis of the deposited data

Results flagged for a closer look

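The log2 ratio of Bcl2l1 to Bok was 3.85 in control replicate 1 and 4.26 to 4.33 in the other 3 control libraries, so that the gap was 0.85 of the group's range, above Dixon's critical value of 0.829 for 4 samples. It was the 1 such value among 42 groups of 4 examined, where chance flags about 1 in 20 groups.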

How the results depend on the processing

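Of 268 values of the members, Marchf5, the ratios and the count of genes recomputed under an alternative, 247 kept their direction and their side of the threshold (or moved by less than the spread between libraries). Of 119 values for 8 named pathway genes, 47 lost the call. Bbc3 is among these genes and was not called with all libraries, so its values had no call to lose. The number of genes past the threshold was 1386, against 2315 with DESeq2's Wald test, and 359 (without control replicate 2) to 2501 (without knockout replicate 4) when 1 library was left out. Bok had a log2 fold change of 1.69 to 2.21 when 1 library was left out and 1.82 to 1.97 in the 6 other fits that gave it a value, past the threshold in all 6. The filter of at least 5 CPM in at least 4 libraries removed it. Bax reached a log2 fold change of 0.45 and passed with DESeq2. Bax ranged from 0.33 to 0.51 and Bak1 from 0.39 to 0.73 when 1 library was left out. Bcl2l1 turned positive without a filter (0.0099) and with DESeq2 (0.0025), and ran from -0.14 to 0.17 when 1 library was left out, and Mcl1 from -0.21 to 0.00092. When 1 library was left out, Bak1 passed the threshold only without control replicate 1 (edgeR, adjusted p = 0.0241), and Bax in no fit. Bcl2l1 and Mcl1 did not pass in any fit. The difference in the summed ratio was -0.91 from mean log2 CPM and -0.74 to -0.50 when 1 library was left out. The cause of these shifts was not tested.

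Replicate numbers gave no clear pairing of the samples (same-number correlations 0.08, -0.07, 0.05 and 0.07, the best match for 2 of 4). With 4 libraries per group, this check cannot exclude a pairing. With the replicate block, 1652 genes passed, the log2 fold changes were 1.82 for Bok, 0.44 for Bax, 0.54 for Bak1 and 0.24 for Bcl2, and no member's call changed, while Trp53 (adjusted p = 0.0543) and Fbxw7 (0.0650) were no longer called. Without 1 library, the difference was -0.19 for Bcl2 to Bak1 without knockout replicate 1, -0.18 without control replicate 2 and -0.47 without control replicate 1, against -0.30. It was -0.29 for Bcl2l1 to Bax without knockout replicate 4, against -0.48, and -0.39 for Mcl1 to Bak1 without control replicate 2, against -0.60. Bok rests on 10 to 120 reads per library.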

Other observations

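Between the effectors themselves, the log2 ratio of Bak1 to Bok was 2.35 ± 0.74 in knockout-labelled and 3.60 ± 0.11 in control libraries (SD, n = 4), without overlap. Ratios to Bok had the knockout-labelled group below without overlap for 63.8% of all genes tested, so this separation is no result about Bak1. The ratio of Bax to Bok was 1.84 ± 0.84 and 3.20 ± 0.53, and that of Bax to Bak1 -0.50 ± 0.11 and -0.40 ± 0.45, both with overlap. Spread also differed between members. The CV of Bcl2l2 was 4.18% in knockout-labelled and 26.6% in control libraries, that of Bak1 8.90% and 29.4%, and that of Bcl2 12.8% and 4.27%. It was 3.76% and 15.4% for Bax, 10.3% and 20.2% for Mcl1, 25.4% and 20.3% for Bcl2l1, and 51.5% and 37.0% for Bok. Among controls, Bcl2l2 was at 389 normalized counts in replicate 4 and at 227 to 290 in the others. Bak1 was at 287 in control replicate 1 and at 148 to 192 in the others. The difference in spread was not tested.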
